A study of Mus musculus with 60 samples.

Results

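The genes described here were 31 mouse genes of the S phase, the part of the cell cycle in which DNA is copied. They were chosen by name from cell cycle gene lists, and the MCM genes and other licensing genes were left out. Licensing prepares origins before the S phase. The licensing list used here is wider, and also holds genes such as Cdc7, which fires origins, and Gmnn, which inhibits licensing. All 31 were found among the 47729 mouse genes of the deposited count table. They cover 6 roles. Some supply deoxynucleotides (dNTPs), some build the replication fork, and some pack new DNA into chromatin and copy its marks. Others protect the fork and turn over its proteins or repair DNA, and E2f8 is a transcriptional repressor.

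When a cell enters the S phase, E2F transcription factors are released from the retinoblastoma proteins and many of these genes are transcribed together. A helicase opens the DNA, primase and polymerase alpha lay down primers, and a sliding clamp holds the main polymerases on the template. Cells that rest outside the cycle are known to keep most of these genes low, so their mRNA levels are widely used to score the cycle phase of single cells.

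The cells were PyMT-Bo1 cells, a mouse mammary tumor line of C57BL6 background that carries luciferase fused to EGFP (Luc2-EGFP), a red nuclear protein (H2B-mApple) and the surface marker Thy1.1. They were labelled with DiD, a membrane dye that is diluted at each division, and injected into the heart of wild-type C57BL6/J mice, which were females 8 to 10 weeks old. At 11 days after injection, the femurs and tibiae of 5 mice were pooled, and cells without CD45 and with Thy1.1 were sorted 1 per well. The comparison was between 32 DiD+ cells, which kept the dye and which the study called dormant, and 28 DiD- cells, which the study called proliferative. Both groups carried the same transgenes and came from the same injection, and by their labels differed in dye only.

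Which mouse a cell came from is not labelled. A group therefore counts as a single sample, and the groups could not be tested against each other. Differences are given as ratios of summed counts and as ranges over cells, and none has a replicate check. Levels are in CPM, counts scaled to a total of 1000000 counts on mouse genes, either of all cells of a group summed together or of a single cell. The log2 ratio is DiD+ over DiD- of the summed CPM after adding 1 CPM. Intervals are exact 95% Poisson intervals for CPM and exact 95% Clopper-Pearson intervals for shares of cells, and both cover counting error only. For CPM this is the counting of reads, which without molecular identifiers do not stand for separate molecules, and for shares it is the counting of cells. Neither covers the spread between mice. Cells are called by the number in their labels.

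Depth was similar in the groups, with 2276789 to 7794219 counts per DiD+ cell and 2624405 to 6199108 per DiD- cell. Counts on mouse genes were 41.6 times the spike-in counts in DiD+ and 65.1 times in DiD- cells. A transgene count was present in 31 of 32 DiD+ and in all 28 DiD- cells. Among the 8 epithelial markers, Krt8 had at least 10 counts in 32 DiD+ and 28 DiD- cells, while Epcam and Cdh1 reached 10 counts in 0 cells of either group. The keratins Krt8 and Krt18 were themselves lower in DiD+ cells, Krt8 at 1831 against 3395 CPM (log2 ratio -0.89) and Krt18 at 728 against 1578 CPM (-1.11). Only these 2 of the 8 epithelial markers reached 1 CPM in either group. Despite the CD45 gate, 6 DiD+ cells (19, 21, 24, 30, 37 and 88) and 1 DiD- cell (84) held at least 7 of 13 macrophage or monocyte markers. All 13 of those markers were higher in DiD+ cells, with a summed level of 1715 CPM against 49.4 CPM. All 7 erythroid markers were also higher in DiD+ cells, with a summed level of 8239 CPM against 1840 CPM, but this rested on few cells. The log2 ratio of the hemoglobin gene Hbb-bs was 1.96, and 0.31 without DiD+ cell 30, which held 11 macrophage and 7 erythroid markers and 0 transgene counts. The main values are also given without the 7 cells with macrophage markers, which include cell 30.

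Promoter sequences were taken from RefSeq (GRCm38.p6) for the 24 of 31 genes that had an entry, and the 250 bases before each start were searched. The first motif was the E2F consensus, spelled TTTCCCGC, TTTCGCGC, TTTGCCGC or TTTGGCGC on either strand. It was present in 6 of 24 S phase promoters (25%), against 583 of 27025 genes with an entry (2.16%). The 6 windows of 100 bases are shown because all 6 genes hold the consensus, in 3 of its spellings, and yet their ratios between the groups run from that of Uhrf1, the lowest of the 31 genes, to that of Dtl, which is close to 0. Capitals mark the match, and each window is written 5′ to 3′ on the strand of its gene.
Uhrf1 (chr17:56304082-56304181, plus strand): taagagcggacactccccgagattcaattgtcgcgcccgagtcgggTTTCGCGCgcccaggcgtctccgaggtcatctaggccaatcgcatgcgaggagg
Pola1 (chrX:93632240-93632339, minus strand): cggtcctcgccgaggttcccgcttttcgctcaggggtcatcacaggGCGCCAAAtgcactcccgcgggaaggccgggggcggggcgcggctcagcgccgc
Hells (chr19:38930882-38930981, plus strand): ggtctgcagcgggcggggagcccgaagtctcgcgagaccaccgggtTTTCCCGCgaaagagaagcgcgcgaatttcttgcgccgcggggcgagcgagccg
Cdca7 (chr2:72476102-72476201, plus strand): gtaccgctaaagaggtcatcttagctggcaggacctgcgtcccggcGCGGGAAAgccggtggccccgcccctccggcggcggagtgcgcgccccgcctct
Casp8ap2 (chr4:32615248-32615347, plus strand): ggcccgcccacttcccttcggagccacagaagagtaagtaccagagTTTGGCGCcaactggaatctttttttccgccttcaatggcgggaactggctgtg
Dtl (chr1:191575545-191575644, minus strand): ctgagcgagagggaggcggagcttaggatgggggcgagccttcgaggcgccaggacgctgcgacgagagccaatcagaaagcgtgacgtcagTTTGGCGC

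The log2 ratios of these 6 genes, in the order shown, were -1.34, -0.95, -0.76, -0.71, -0.31 and -0.07. The second motif, CCAAT on either strand, was present in 16 of 24 S phase promoters (66.7%) against 37.5% of all genes, and no E2F match in these promoters shared a base with a CCAAT match. In the other lists the E2F motif was present in 5 of 13 licensing promoters, 3 of 26 promoters of other DNA synthesis genes and 1 of 18 promoters of G2/M genes. A match is a description of the letters and not a bound site.

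Taken gene by gene, the S phase genes were lower in DiD+ cells. Of the 31 genes, 29 had a lower summed level in DiD+ than in DiD- cells, against 46.8% of the 12432 genes that reached 1 CPM in either group. By the log2 ratio, with its added 1 CPM, the level was at least 1.5-fold lower for 13 of 31 (41.9%, against 12.1% of all genes). It was at least 2-fold lower for 4 (12.9%, against 4.86%). The 4 were Uhrf1, Rrm1, Rfc2 and Exo1, and 0 genes were at least 1.5-fold higher. From CPM without the added 1 CPM, Usp1 was also 2.01-fold lower and Clspn 1.52-fold lower. Ung was then 3.38-fold and Wdr76 2.01-fold higher, both at low levels. The median log2 ratio was -0.54 over the 30 that reached 1 CPM, against 0.04 over all genes. Over all 31 it was -0.53. Without the 7 cells with macrophage markers the median was -0.39, 27 genes were lower and 12 were at least 1.5-fold lower. The median of all genes was 0.05 without those cells, and the shares of all genes were not computed without them. Ung (log2 ratio 0.70) and Wdr76 (0.61) were then at least 1.5-fold higher. Krt8 and Krt18, which are no S phase genes, were lower by as much as many of them (log2 ratios -0.89 and -1.11, and -0.996 and -1.41 without those cells), and the part of this in the S phase ratios was not tested. Ung was the gene left out by the minimum, and Wdr76 passed it only through DiD+ cells, where it was higher.

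**Figure D1:**
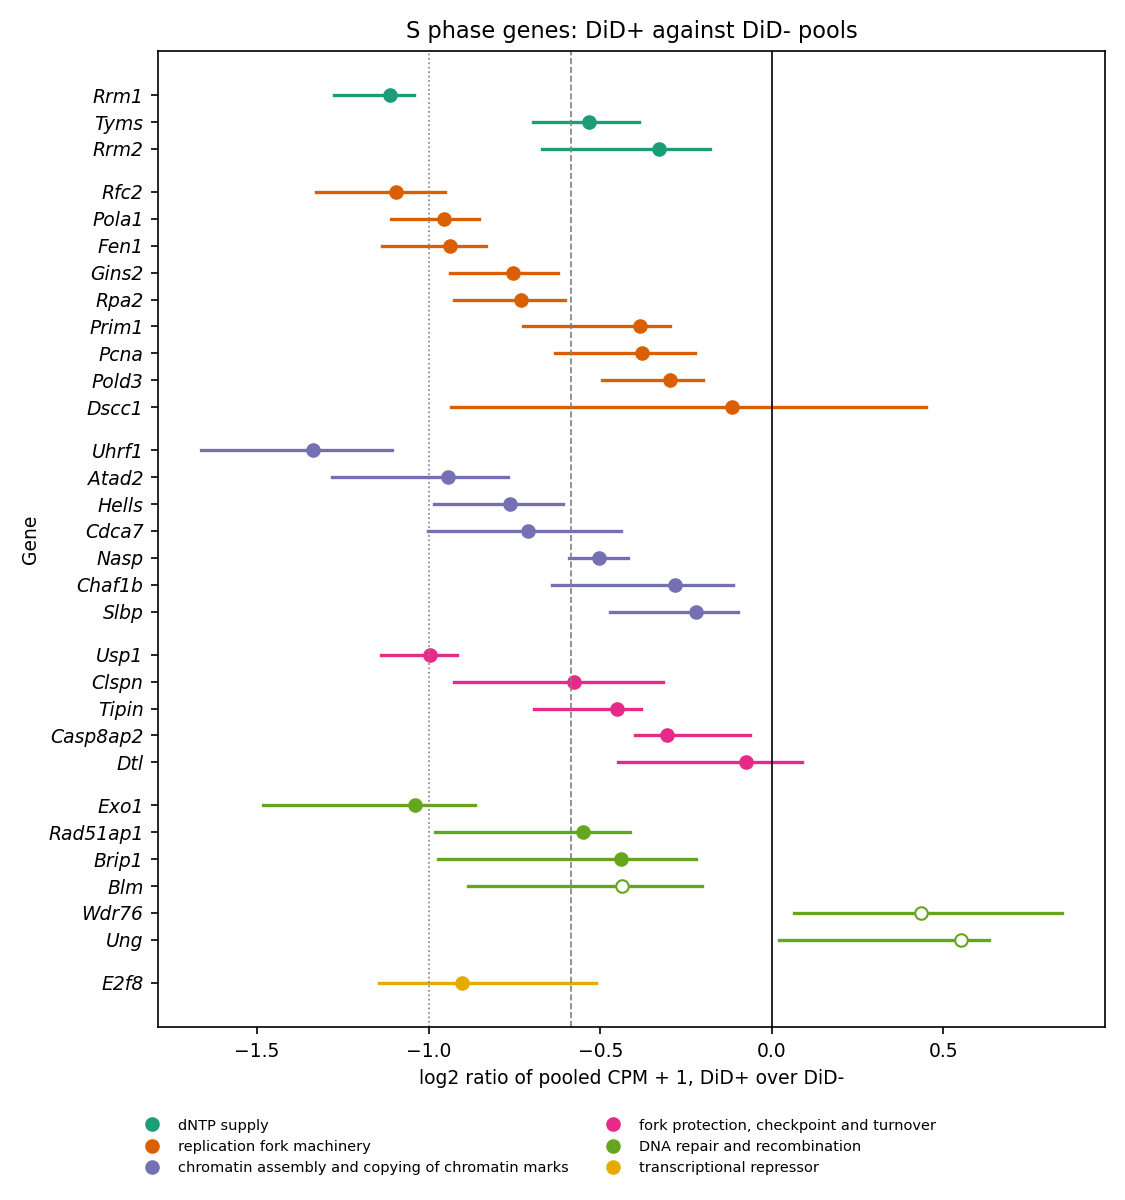
Log2 ratio of the summed level (CPM + 1) of each S phase gene, DiD+ over DiD-, grouped by role. Points are the values from all 60 cells, open where the gene was under 10 CPM in both groups, and bars run from the lowest to the highest value with 1 cell left out. The dashed line marks 1.5-fold lower and the dotted line 2-fold lower, and the 29 points left of 0 include Dscc1 and Dtl, whose bars cross it.

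All 3 genes that supply dNTPs were lower in DiD+ cells, and their median log2 ratio was -0.53 (-0.46 without the cells with macrophage markers). Rrm1 (chr7:102441695-102469771 of GRCm38), the large subunit of ribonucleotide reductase, ranged from 0 to 669 CPM in DiD+ cells with a median of 129 CPM, and from 0 to 973 CPM in DiD- cells with a median of 486 CPM. The ranges overlapped, but the typical DiD- cell was near the upper part of the DiD+ range. The summed level was 207 CPM (205 to 210) against 450 CPM (446 to 454), a log2 ratio of -1.11 that stayed between -1.28 and -1.04 whichever cell was left out and was -0.93 without the cells with macrophage markers.

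Rrm2 (chr12:24708241-24714146), the small subunit that rises and falls with the cycle, behaved otherwise. Its summed levels were closer, 311 CPM for DiD+ and 390 CPM for DiD-, which is a log2 ratio of -0.33. The cells were far apart: it reached 10 counts in 65.6% of DiD+ cells (21 of 32, interval 46.8% to 81.4%) and in every DiD- cell (28, interval 87.7% to 100%). Its median per cell was 59.9 CPM (DiD+) and 217 CPM (DiD-), while its highest level of all cells, 2646 CPM, was in DiD+ cell 64. That cell held 23.3% of the Rrm2 counts of its group, and without it the log2 ratio was -0.67. Without the cells with macrophage markers it was -0.05. Tyms, the enzyme that makes thymidylate, had a median of 76.6 CPM in DiD+ cells (range 0 to 502) and 123 CPM in DiD- cells (range 0 to 544), and its log2 ratio was -0.53.

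The replication fork genes formed the largest role, and all 9 were lower in DiD+ cells. Their median log2 ratio was -0.73, and 5 were at least 1.5-fold lower. Without the cells with macrophage markers the median was -0.54. Rfc2, a subunit of the loader that places the sliding clamp, had a median of 60 CPM in DiD+ cells (range 0 to 421) and 199 CPM in DiD- cells (range 0 to 755). Its summed level was 115 CPM against 247 CPM, a log2 ratio of -1.09 (-1.33 to -0.95 with 1 cell left out). It was present at 10 counts in nearly every cell, 30 of 32 and 27 of 28, so the groups differed in its level and hardly in the share of cells.

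Pola1, the catalytic subunit of polymerase alpha, had a median of 21.6 CPM in DiD+ cells (range 0 to 189) and 76 CPM in DiD- cells (range 0 to 262). Its log2 ratio was -0.95, and -1.28 without the cells with macrophage markers, one of which (cell 88) held its highest DiD+ level. Prim1, the primase subunit that makes the RNA primer, had medians of 34.6 CPM and 87.2 CPM, but DiD+ cell 25 alone held 24.4% of its DiD+ counts. Its log2 ratio was -0.38 with that cell and -0.73 without it. In the other direction, the ratio was -0.30 without DiD- cell 26 and -0.15 without the cells with macrophage markers.

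Pcna, the sliding clamp itself, had at least 10 counts in all 60 cells. It ranged from 6.07 to 929 CPM in DiD+ cells with a median of 110 CPM, and from 43.3 to 999 CPM in DiD- cells with a median of 213 CPM. Its log2 ratio of summed levels was -0.38, a smaller difference than that of its medians, and it was -0.63 without DiD+ cell 82. The ratio was -0.22 without DiD- cell 26 and -0.20 without the cells with macrophage markers. The counts of the annotated pseudogene Pcna-ps2 were 153 and 154 in the groups, and Pcna-ps1 had 0, and how reads were shared with these copies was not tested.

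Fen1, the nuclease that trims Okazaki fragments, had medians of 33.6 CPM (DiD+) and 92.2 CPM (DiD-) and a log2 ratio of -0.94. Gins2, a part of the replicative helicase, had medians of 33.4 CPM and 74.9 CPM and a log2 ratio of -0.75. Rpa2, a subunit of the single-strand binding protein RPA, reached 10 counts in 19 of 32 DiD+ cells (59.4%) and 26 of 28 DiD- cells (92.9%), and its log2 ratio was -0.73. Rpa2 was the 1 of the 13 genes that was no longer 1.5-fold lower without the cells with macrophage markers, at -0.54. The library kit does not mark strand, and exons on the opposite strand overlap 67.3% of the Gins2 exons (from Gse1, with 324 and 25 counts), 15.1% of the Rfc2 exons (from Lat2, with 842 and 504 counts) and 5.37% of the Fen1 exons (from Tmem258, with 15481 and 12962 counts). A further antisense gene, Gm10143, overlaps 78.8% of the Fen1 exons and had 0 and 5 counts. Reads in those stretches cannot be told apart by gene, and the values of Gins2, Rfc2 and Fen1 are therefore uncertain.

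Pold3, an accessory subunit of polymerase delta, differed less, with medians of 47.4 CPM and 63.2 CPM and a log2 ratio of -0.30. Dscc1, a subunit of an alternative clamp loader that serves sister chromatid cohesion, rested on few cells. DiD+ cell 82 held 48% and DiD- cell 26 held 36.6% of its counts, and its log2 ratio of -0.12 became -0.94 without the first and 0.45 without the second. No direction can be given for Dscc1 from its summed levels, although 10 of 32 DiD+ and 15 of 28 DiD- cells reached 10 counts.

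All 7 genes of chromatin assembly and of copying chromatin marks were lower in DiD+ cells. Their median log2 ratio was -0.71 (-0.64 without the cells with macrophage markers), and 4 were at least 1.5-fold lower. Uhrf1 (chr17:56303321-56323486), which brings the maintenance DNA methyltransferase to newly copied DNA, had the lowest ratio of the 31 genes. It ranged from 0 to 302 CPM in DiD+ cells with a median of 1.32 CPM, and from 0 to 530 CPM in DiD- cells with a median of 81 CPM. No count at all was found in 16 of 32 DiD+ cells and 3 of 28 DiD- cells. The summed level was 48.9 CPM (47.7 to 50) against 125 CPM (123 to 127), a log2 ratio of -1.34 that ran from -1.66 without DiD+ cell 25 to -1.11 without DiD- cell 26. It was -1.15 without the cells with macrophage markers.

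Atad2, a bromodomain ATPase of chromatin, had medians of 19.3 CPM (DiD+) and 69.2 CPM (DiD-) and a log2 ratio of -0.94. Hells, a chromatin remodeler needed for DNA methylation, and Cdca7, which activates it, had log2 ratios of -0.76 and -0.71. The Hells medians were 10.8 CPM and 44.7 CPM, and the Cdca7 medians 19.7 CPM and 62 CPM. Cdca7 was -0.44 without DiD- cell 32, which held 20.9% of its DiD- counts, and was then less than 1.5-fold lower.

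The histone genes' own helpers differed least in this role. Nasp, a histone chaperone, had medians of 69.1 CPM and 93.4 CPM and a log2 ratio of -0.50. Chaf1b, a subunit of the chromatin assembly factor CAF-1, had medians of 30.5 CPM and 45.5 CPM and a log2 ratio of -0.28. Slbp, which binds the stem-loop of histone mRNAs, had at least 10 counts in all 60 cells, with medians of 126 CPM and 179 CPM and a log2 ratio of -0.22.

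The role of fork protection, checkpoint signalling and protein turnover had 5 genes, with Casp8ap2, a gene of histone mRNA processing, placed among them. All 5 were lower in DiD+ cells and 1 was at least 1.5-fold lower, with a median log2 ratio of -0.45. Without DiD+ cell 82 this median was -0.69, and without the cells with macrophage markers it was -0.27. The gene past 1.5-fold was Usp1, which removes ubiquitin from PCNA. It had a median of 35.3 CPM in DiD+ cells (range 0 to 252) and 118 CPM in DiD- cells (range 0 to 282), and a log2 ratio of -0.997 (-1.14 to -0.92 with 1 cell left out). It reached 10 counts in 25 cells of each group, 78.1% and 89.3%.

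Tipin, a part of the fork protection complex, had medians of 99.4 CPM and 192 CPM and a log2 ratio of -0.45, and was present in 31 of 32 and 27 of 28 cells. Clspn (claspin), which passes the checkpoint signal to the kinase Chk1, reached 10 counts in 10 DiD+ and 16 DiD- cells, with a log2 ratio of -0.58. Casp8ap2, which takes part in histone mRNA processing, was the 1 gene with a higher median in DiD+ cells, 25.1 CPM against 23.4 CPM, although its summed level was lower (log2 ratio -0.31). Dtl, the adaptor of a ubiquitin ligase that destroys licensing factors in the S phase, had nearly equal summed levels of 36.05 CPM and 38 CPM, while its median over cells was 0 in DiD+ and 34.4 CPM in DiD- cells. Its log2 ratio of -0.07 was -0.45 without DiD+ cell 25, 0.09 without DiD- cell 79 and 0.19 without the cells with macrophage markers, so no direction can be given for it either.

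The 6 DNA repair genes were the most sparsely counted, and 4 were lower and 2 higher in DiD+ cells. The median log2 ratio of the 5 with at least 1 CPM was -0.44, and it was -0.83 without DiD+ cell 64 and -0.24 without the cells with macrophage markers. Exo1, an exonuclease of mismatch repair and of break resection, reached 10 counts in 8 of 32 DiD+ cells (25%, interval 11.5% to 43.4%) and 16 of 28 DiD- cells (57.1%, interval 37.2% to 75.5%). Its highest cell was at 272 CPM in each group, and its summed level was 29 CPM against 60.6 CPM, a log2 ratio of -1.04.

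Rad51ap1, which takes part in recombination, had a log2 ratio of -0.55 and reached 10 counts in 11 DiD+ and 15 DiD- cells. Brip1, a helicase that binds Brca1, had a log2 ratio of -0.44, which was -0.97 without DiD+ cell 64, the cell that held 34.5% of its DiD+ counts. The Brip1 ratio was -0.22 without DiD- cell 32 and -0.32 without the cells with macrophage markers. Blm, the helicase lost in Bloom syndrome, was at 2.70 CPM and 4.01 CPM, with a log2 ratio of -0.44. The 2 genes above 0 were near the limit of what the counts can show. Ung, which removes uracil from DNA, had a summed level of 0.821 CPM for DiD+ and 0.243 CPM for DiD- (log2 ratio 0.55), and reached 10 counts in 2 of 32 DiD+ and 0 of 28 DiD- cells (interval 0% to 12.3%). Of its DiD+ counts, 70% were in cell 82, and without that cell the log2 ratio was 0.02. Wdr76, a WD repeat protein, was at 1.07 and 0.536 CPM, with 46.5% of its DiD+ counts and 71.9% of its DiD- counts in 1 cell each.

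E2f8 (chr7:48866429-48881596), an atypical E2F that represses E2F targets late in the cycle, was itself lower in DiD+ cells. It ranged from 0 to 112 CPM in DiD+ cells with a median of 0, and from 0 to 268 CPM in DiD- cells with a median of 17.6 CPM. It reached 10 counts in 14 of 32 DiD+ cells (43.8%) and 21 of 28 DiD- cells (75%). Its log2 ratio was -0.90, and -0.51 without DiD- cell 26, which held 27.7% of its DiD- counts. On the opposite strand the transcript Gm2788 overlaps 11.2% of the E2f8 exons and had 33 and 279 counts.

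Per kilobase of exon, Rrm2 had the highest level, at 112 CPM per kilobase in DiD+ and 141 in DiD- cells, followed by Pcna at 99.7 and 130 and Tipin at 83.4 and 114. Ung had the lowest level, at 0.150 and 0.0444 CPM per kilobase.

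The share of cells that held a gene was smaller in DiD+ cells for most of the 31 genes. A share with at least 10 counts was smaller for 26 genes and larger for 3, with a median difference of -18.3 percentage points, and 48.9% of all genes had a smaller share in DiD+ cells. The 3 with a larger share were Tipin, Ung and Wdr76, and Pcna and Slbp were present in every cell of both groups. For Ung and Wdr76 this rested on the minimum of 10 counts. At least 1 count of Ung was found in 5 of 32 DiD+ and 10 of 28 DiD- cells, and of Wdr76 in 4 cells of each group. The median level over cells was lower for 27 genes and higher for 1, against a lower median for 39.8% of all genes. The median was 0 for 10 genes in DiD+ and for 3 genes in DiD- cells. The share of all genes with a median of 0 was not computed, so these counts cannot be set against it. The widest gap in shares, after Rrm2, was that of Rpa2, with Exo1, E2f8 and Prim1 close to it. With each cell thinned to 2200000 counts the median difference was -19.2 points, and without the cells with macrophage markers it was -17.2 points.

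**Figure D2:**
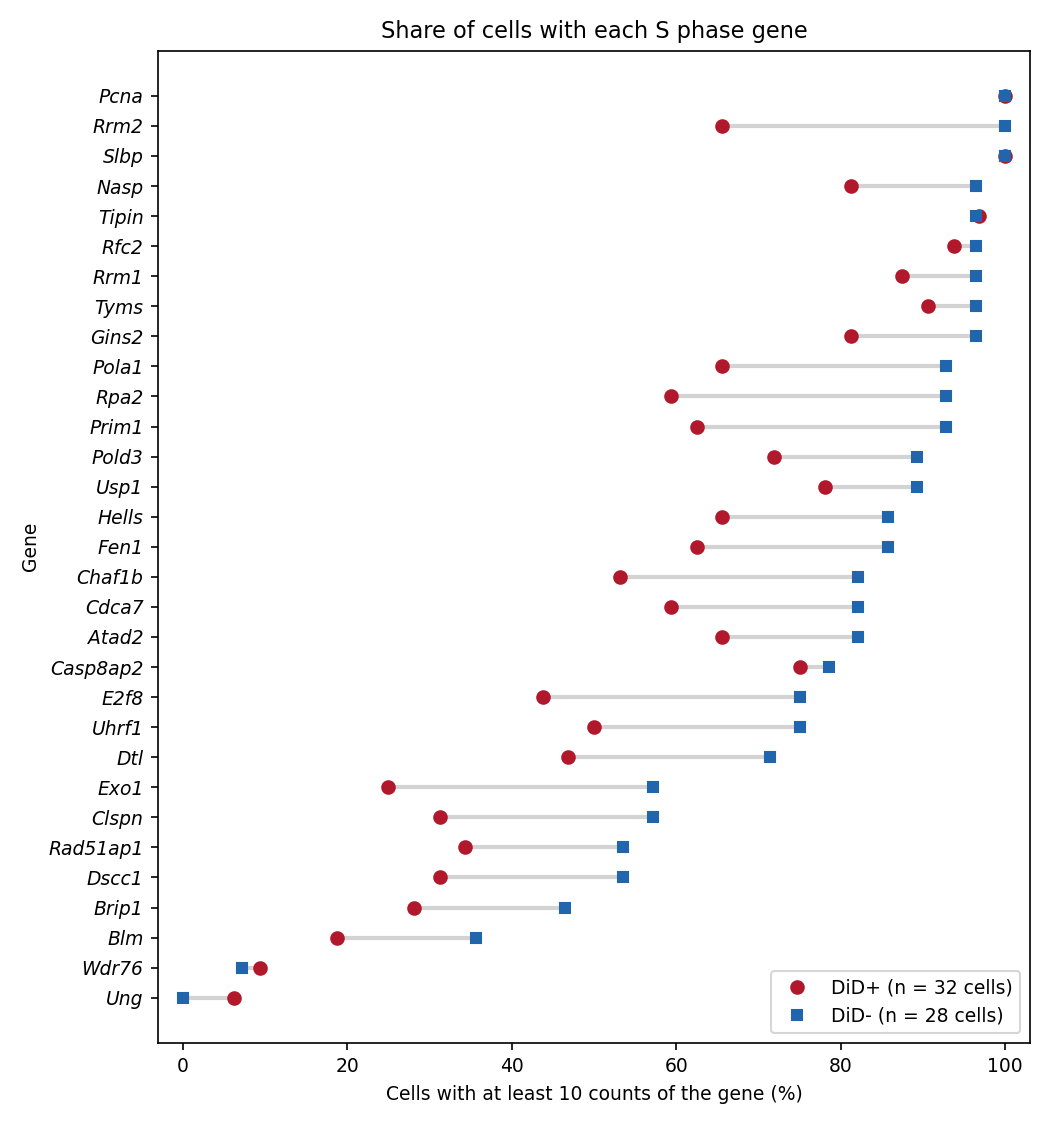
Share of cells with at least 10 counts of each S phase gene (x axis, percent), with DiD+ cells as red circles (n = 32) and DiD- cells as blue squares (n = 28), ordered by the DiD- share. The DiD+ share lies to the left for 26 genes, and both symbols sit at 100% for Pcna and Slbp.

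Among the cells that held a gene, the groups were compared for the 29 genes present in at least 5 cells of each group, a comparison chosen after the values were seen. The median level over those cells was lower in DiD+ for 23 genes and higher for 6, and it was lower for 47.3% of the 9951 genes that could be compared in this way. Rfc2 was at a median of 63.5 CPM in 30 DiD+ cells and 201 CPM in 27 DiD- cells, Rrm1 at 159 CPM and 499 CPM, and Atad2 at 30.6 CPM and 90.4 CPM. For Uhrf1 these medians were close, at 90 CPM in 16 DiD+ cells and 98.3 CPM in 21 DiD- cells, as they were for Rpa2 at 117 CPM in 19 and 121 CPM in 26 cells. Rfc2, Rrm1, Usp1 and Tipin were thus at a lower level in cells that held them, while Uhrf1 and Rpa2 were missing from more DiD+ cells. For Uhrf1 the close medians do not show equal levels among the holding cells. DiD- cells 26, 79 and 33 held 530, 509 and 303 CPM of Uhrf1, all above its highest DiD+ cell (302 CPM). Its summed CPM was 2.56-fold lower, with 50% of DiD+ against 75% of DiD- cells holding it. The part of level and the part of absence in this were not computed. The 6 genes with the higher DiD+ median were Dscc1, Chaf1b, Clspn, Dtl, Blm and E2f8.

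Cell by cell, the summed level of the 31 genes ran from 316 CPM (cell 68) to 9305 CPM (cell 25) in DiD+ cells, with a median of 1217 CPM and quartiles of 828 and 2470 CPM. In DiD- cells it ran from 578 CPM (cell 85) to 9095 CPM (cell 26), with a median of 2766 CPM and quartiles of 2249 and 4300 CPM. The ranges overlapped over nearly their whole length. Of the 32 DiD+ cells, 24 were below the DiD- median and 3 were below the lowest DiD- cell, and 4 of the 28 DiD- cells were below the DiD+ median. The number of genes with at least 10 counts in a cell had a median of 17.5 (4 to 30) in DiD+ and 25 (9 to 29) in DiD- cells.

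**Figure D3:**
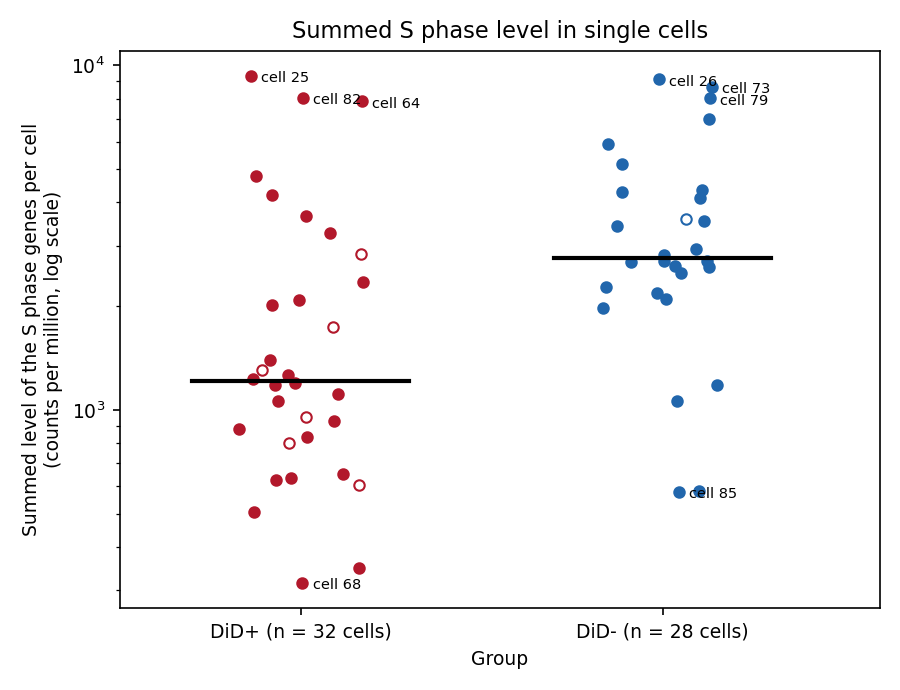
Summed level of the 31 S phase genes in each cell (y axis, CPM, log scale) for DiD+ (n = 32) and DiD- (n = 28) cells. Each point is a cell, open where it held at least 7 of 13 macrophage markers, horizontal lines are medians (1217 and 2766 CPM), and sideways spread has no meaning. DiD+ cells 25, 64 and 82 lie as high as the highest DiD- cells.

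The ratio between the groups depended on whether cells were taken one by one or summed. The median cell was 2.27-fold lower in DiD+ (log2 ratio -1.18), but the summed counts only 1.55-fold lower (log2 ratio -0.63). DiD+ cells 25, 64 and 82, at 9305, 7858 and 8058 CPM, held 42.5% of all counts on these genes in the DiD+ group. The highest 3 DiD- cells (26, 73 and 79) held 25.5% in theirs. Cells 25, 64 and 82 had 29, 30 and 30 of the 31 genes at 10 counts or more, and 1 of the 3 held the highest DiD+ level for 21 of the 31 genes. Without cell 82 the number of genes at least 1.5-fold lower was 23 and the median log2 ratio -0.77. Without cell 25 the number was 21, and without cell 64 it was 18. Without DiD- cell 26 the number was 12 and the median log2 ratio -0.44. The log2 ratio of the median cells ran from -1.21 to -1.16 with 1 cell left out, and was -1.16 without the cells with macrophage markers. Leaving out 1 cell can move a median only as far as its neighbouring cells, so a narrow run was given in advance.

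None of the cells with macrophage markers was among the 3 highest of its group. The 6 DiD+ cells had summed S phase levels of 607, 801, 952, 1305, 1745 and 2842 CPM, the last (cell 88) above the DiD+ upper quartile of 2470 CPM. DiD- cell 84 had 3582 CPM, above the DiD- median of 2766 CPM. Cells 25 and 64 held 0 and cell 82 held 2 of the 13 markers. Scaled to the spike-ins, which differ between the groups as given above, the median log2 ratio of the 31 genes was -0.85 and that of all genes -0.34, a difference of -0.51, against -0.58 when scaled to counts.

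**Figure D4:**
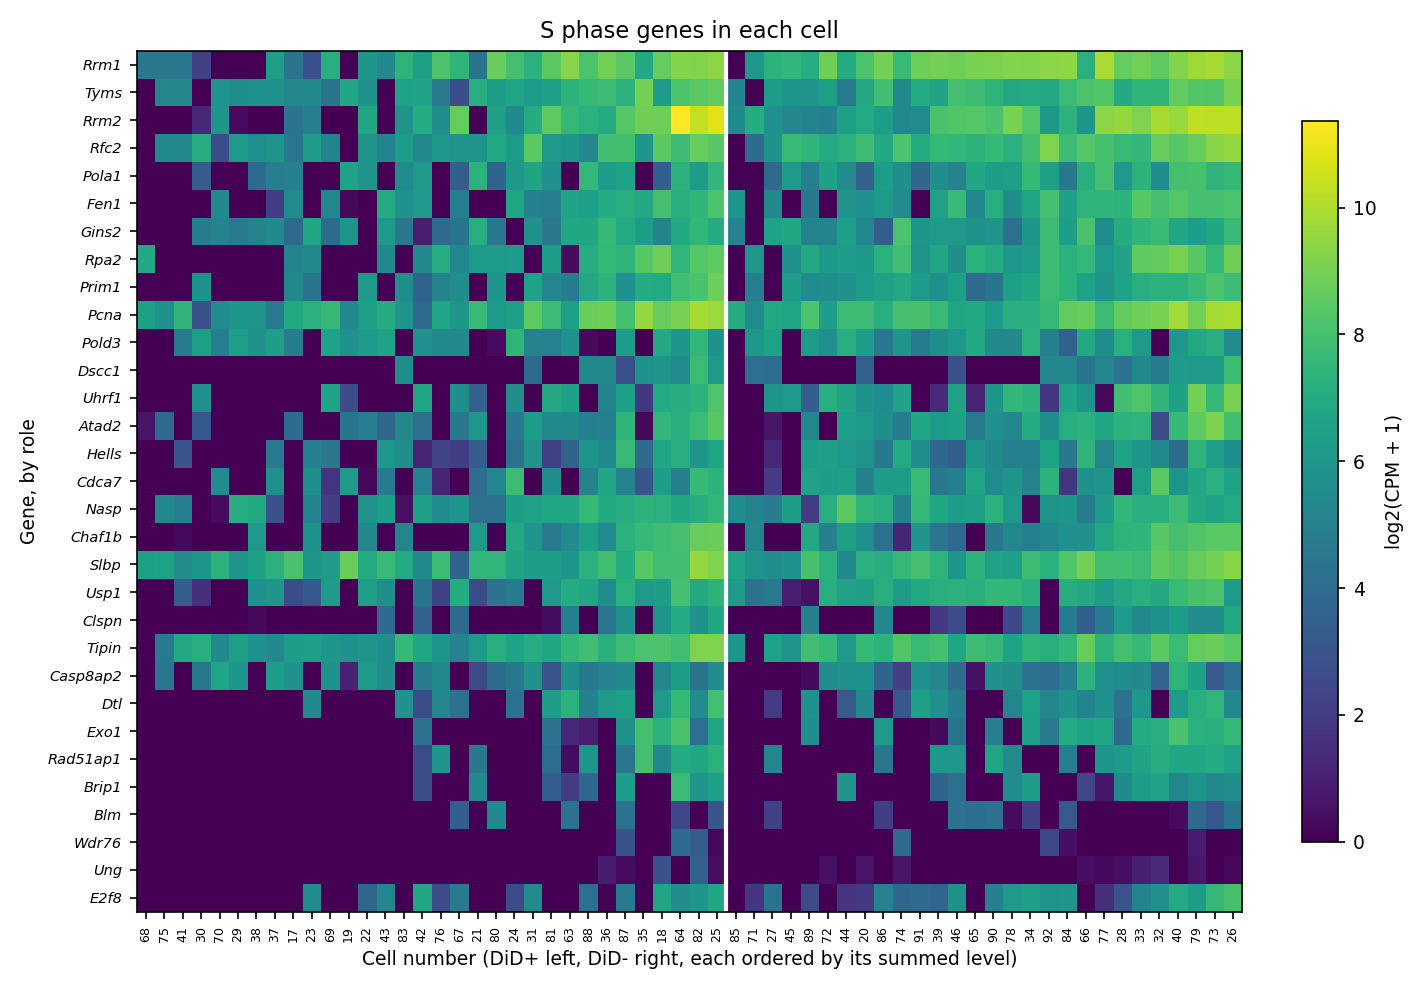
Level of each S phase gene in each cell as log2(CPM + 1), with genes in rows by role and cells in columns, DiD+ left and DiD- right of the white line, each ordered by summed level. Dark fields are cells without the gene, which fill the left of the DiD+ block for Exo1, Rad51ap1, Brip1, Dtl, Clspn and Dscc1, while Pcna, Slbp and Tipin are present nearly throughout.

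Most pairs of S phase genes had a rank correlation above 0 from cell to cell within each group. Over all 465 pairs of genes, the median Spearman rho was 0.50 in DiD+ cells (n = 32) with 459 pairs above 0, and 0.41 in DiD- cells (n = 28) with 444 pairs above 0. Pairs of other genes were not computed, so whether these counts are particular to S phase genes is not known. The highest pair was Exo1 and Rad51ap1 in DiD+ cells (rho 0.86) and Clspn and Exo1 in DiD- cells (rho 0.86). Against the sum of the others, Rrm2 had a rho of 0.78 and 0.71 in the groups, Fen1 0.75 and 0.80, and Exo1 0.74 and 0.82. Pold3 stood apart with 0.16 and 0.12, and Casp8ap2 had 0.06 and 0.45. These values describe cells that share a preparation and a scaling to their own total, and they carry no test. The summed level had a rho of 0.10 in DiD+ and 0.24 in DiD- cells with the counts of a cell, 0.25 and 0.47 with the number of genes detected, and 0.35 and 0.09 with its mouse counts per spike-in count.

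The other genes of DNA replication were lower in DiD+ cells as well. The shares to read these lists against are again 46.8% of all genes lower and 12.1% at least 1.5-fold lower. Both shares are from all 60 cells and were not computed without the cells with macrophage markers. Of 15 licensing genes, all were lower (100%) and 12 at least 1.5-fold lower (80%), with a median log2 ratio of -0.75, and 10 were past 1.5-fold without the cells with macrophage markers. Cdc7, the kinase that fires origins, was at -1.68 and Mcm10, an initiation factor, at -1.60, while Orc1, a subunit of the origin recognition complex, was at -0.24 (0.43 without DiD- cell 33) and Gmnn (geminin), an inhibitor of licensing, at -0.42. Of 32 other DNA synthesis genes, 31 were lower (96.9%) and 11 at least 1.5-fold lower (34.4%), with a median of -0.44. Without the cells with macrophage markers 29 were lower and 5 past 1.5-fold. The lowest were Pold1 (-1.19) and Pold2 (-1.0004), the catalytic and an accessory subunit of polymerase delta. The highest was its small subunit Pold4 (0.02).

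Within polymerase delta, the 4 subunits therefore lay apart, with log2 ratios of -1.19 for Pold1, -1.0004 for Pold2, -0.30 for Pold3 and 0.02 for Pold4. The 5 genes listed for nucleotide supply outside the S phase did not share the direction, and 2 were lower (40%), 0 of them 1.5-fold, and 3 higher, with a median of 0.30. The 3 include Samhd1, which removes dNTPs and does not supply them, and a median without it was not computed. Rrm2b, the ribonucleotide reductase subunit used by resting cells, was at -0.52 (0.04 without DiD- cell 74) and Dck, deoxycytidine kinase, at -0.25. Tk2, the mitochondrial thymidine kinase, was at 1.65 and Samhd1, which degrades dNTPs and is abundant in macrophages, at 1.14. Without the cells with macrophage markers Tk2 was at 1.62 and Samhd1 at 1.27.

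Of 11 genes of E2F and G1/S control, 8 were lower (72.7%) and 5 at least 1.5-fold lower (45.5%), with a median of -0.58. Without the cells with macrophage markers 9 were lower and 3 past 1.5-fold. Rbl1 (p107) was at -1.58 and E2f7, the other atypical E2F, at -1.42. E2f2 was at 1.63, from 3.31 CPM (DiD+) and 0.393 CPM (DiD-), but 3 DiD+ cells and 1 DiD- cell reached 10 counts and DiD+ cell 30 held 59.1% of its DiD+ counts. It was at 0.79 without that cell and at -0.25 without the cells with macrophage markers, so it has no direction here. The retinoblastoma gene Rb1 was at 0.64, and at 0.32 without DiD+ cell 43. Of 20 G2/M genes, 19 were lower (95%) and 11 at least 1.5-fold lower (55%), with a median of -0.67. Without the cells with macrophage markers 17 were lower, 6 were past 1.5-fold and the median was -0.43. Top2a, the topoisomerase that untangles chromosomes, was at -1.22 and the checkpoint kinase Bub1 at -1.20, while Cdc20, the activator of the anaphase-promoting complex, was at 0.02 and Cenpf, a kinetochore protein, at -0.02, both near 0 and of either sign with 1 cell left out.

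The summed S phase level followed that of the licensing genes in both groups, with a Spearman rho of 0.92 in DiD+ (Pearson r 0.91 on log2 levels) and 0.83 in DiD- cells (r 0.89). It followed the other DNA synthesis genes with a rho of 0.89 and 0.97. With the G2/M genes the rho was 0.74 in DiD+ (r 0.62) and 0.20 in DiD- cells (r 0.39), and the difference between the groups was not tested. In DiD+ cells 68, 75 and 41, the 3 below every DiD- cell, the summed G2/M level was also low, at 3.80, 32.5 and 0.201 CPM. DiD+ cells 42, 63, 67 and 81, on the other hand, held 10162, 16453, 15630 and 14350 CPM of G2/M genes with S phase levels of 1202, 2346, 1263 and 2082 CPM. DiD- cells 27 and 65 were alike, with 12848 and 12556 CPM of G2/M genes and 1065 and 2712 CPM of S phase genes. Against the median S phase levels of 1217 CPM (DiD+) and 2766 CPM (DiD-), cells 63 and 81 were above that of their group. Cells 42, 67, 27 and 65 were near or below it. Both groups thus held some cells high in G2/M genes without a raised S phase level, and both held cells high in S phase genes.

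**Figure D5:**
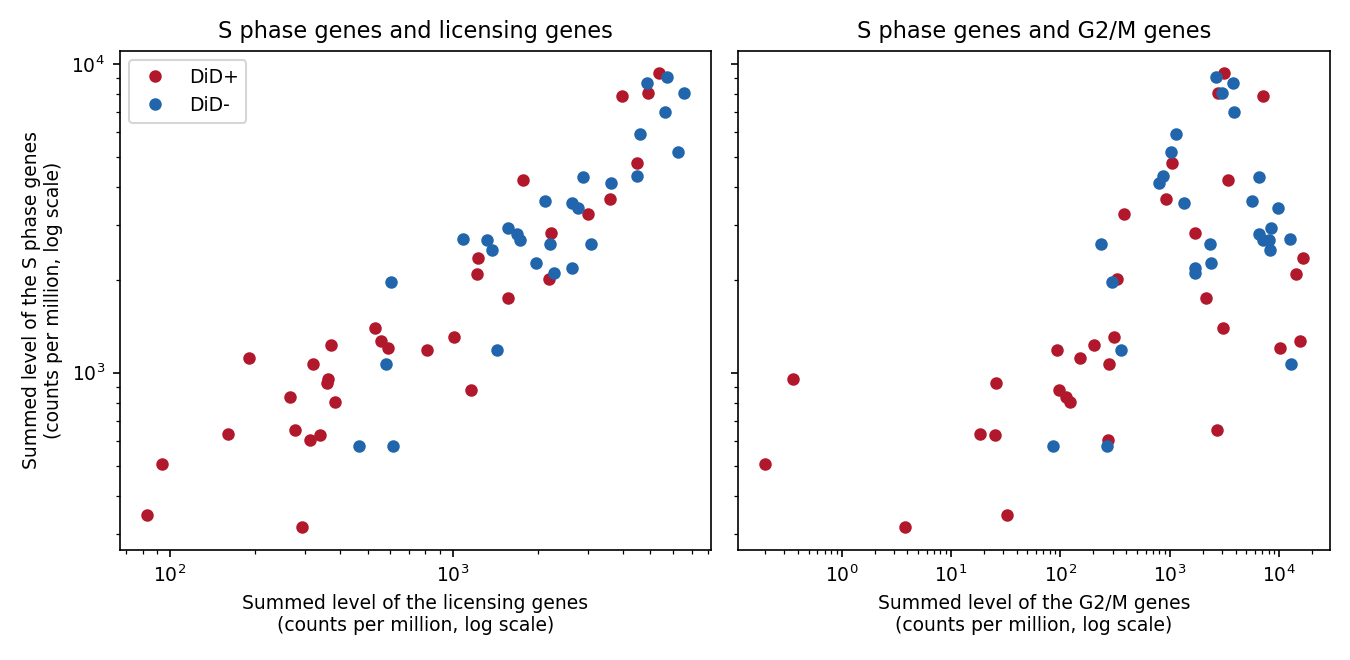
Summed level of the S phase genes (y axis, CPM, log scale) against that of the 15 licensing genes (left) and the 20 G2/M genes (right), each point a cell, DiD+ red and DiD- blue. Points lie along a line for the licensing genes, and for the G2/M genes they turn back toward lower S phase levels at the highest G2/M levels.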

How the data were processed

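Single PyMT-Bo1 cells from pooled mouse bones were measured by SMARTer and Nextera XT RNA sequencing, 32 DiD+ and 28 DiD- cells by their labels. The authors trimmed and aligned the reads with STAR to GRCm38/mm10 with spike-in and transgene sequences added, and deposited RSEM estimated counts (expected counts) per gene and cell, without normalization. Versions are not given in the sources used here. A normalized signal table, which the authors made with BASiCS and deposited, served only as an alternative scaling. All 60 columns of each table were matched to cells by label, and 0 were left unused.

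Estimated counts, 96.6% of them exactly whole (no tolerance), were rounded. Totals leave out the 92 spike-ins and 4 transgenes. Counts were summed per group, divided by the group total, and compared as log2 ratios with a pseudocount of 1 CPM. A list's median covers its genes that reached 1 CPM in either group. Presence in a cell means at least 10 counts. No test was run, since a group is 1 sample, and the study's BASiCS test on cells was not repeated. A gene without counts can hold up to 0.0205 CPM (DiD+) or 0.0251 CPM (DiD-), which is the limit for a count of 0 (3 counts over the group). No cell was left out, no 2 cells had the same counts, and wells with more than 1 cell were not removed. Samples carry no batch label. Labels and methods name different instruments and read lengths, and which holds is not known.

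The 31 genes and all other lists were chosen with earlier results of these data known. All 31 genes were named, of each other list the 2 highest and 2 lowest log2 ratios, and cells where they held an extreme, moved a value most or held at least 7 macrophage markers. A gene that this rule takes is not reported here. Cells 42, 63, 67, 81, 27, 65, 75 and 41, and the subunits of polymerase delta, were named after their values were seen. Gene positions, exons and pseudogenes are from GENCODE (GRCm38). Of the S phase genes, 24 had a promoter entry. Alternatives are given at the end. Scaling factors came from edgeR 4.0.16 and DESeq2 1.42.0 (R 4.3.3). All else ran in Python 3.11.15 (pandas 2.3.3, numpy 2.4.6, scipy 1.17.1) and figures in matplotlib 3.10.9. The ratio step was tested on simulated counts.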

Additional observations from a re-analysis of the deposited data

How the results depend on the processing

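No test stands behind these values, so they show only how far each moved. The median log2 ratio of the 31 S phase genes (-0.54) was -0.61 for the mean over cells of CPM, -0.65 with BASiCS values, -0.85 with spike-in scaling, -0.45 with a pseudocount of 10 CPM, -0.61 with thinned cells and -0.39 without the cells with macrophage markers. With 1 cell left out it ran from -0.77 to -0.44. The median of all genes was -0.34 with spike-in scaling and between -0.00405 and 0.0501 otherwise. The number at least 1.5-fold lower (13) was 22 with spike-in scaling and ran from 12 to 23 with 1 cell left out. The share of all genes past 1.5-fold (12.1%) was computed in the main setting only. Counts under the alternatives therefore have no share to be read against. Less the median of all genes, the median of the S phase genes was -0.51 with spike-in scaling and -0.58 in the main setting. The log2 ratio of the group medians of the summed level (-1.18) was -1.38 with BASiCS values and -1.86 with spike-in scaling, and ran from -1.21 to -1.16 with 1 cell left out. The median difference in shares of cells (-18.3 points) was -20.1 at a minimum of 1 count and -21.9 at 100 counts, and -17.2 without the cells with macrophage markers, an alternative chosen after seeing the data, as were those for the other lists. TMM and DESeq2 size factors gave 14 genes each. Ung and Wdr76, less than 1.5-fold higher in the main setting, passed 1.5-fold with a pseudocount of 0.1 CPM (log2 ratios 1.43 and 0.89). Both also passed it without the cells with macrophage markers (0.70 and 0.61).

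Of the 29 genes that were lower, 27 were lower under every alternative run, and Dscc1 and Dtl were higher under at least 1. Of the 13 genes at least 1.5-fold lower, 9 (Atad2, Exo1, Fen1, Gins2, Pola1, Rfc2, Rrm1, Uhrf1 and Usp1) remained so under every alternative and with any cell left out. Hells was not with spike-in scaling, Rpa2 not without the cells with macrophage markers, E2f8 not without DiD- cell 26 and Cdca7 not without DiD- cell 32. The causes were not tested. No paired analysis was possible because the labels give no replicate numbers that cells of both groups share. With 1 pool of 5 mice and no mouse named for a cell, the spread between mice is unknown.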
